A study of Mus musculus with 2 samples.

Results

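An RNA interference screen of mouse neural stem cells was read on a pair of arrays covering 18193 genes. Of these genes, 167 had a bright library signal before DNA damage and a log2 signal below 3 in the cells that survived it. A gene was counted here when its log2 signal was above 5 in the reference control and below 3 in the MNNG survivors, at the probe set with the highest mean of both arrays. Genes whose symbols begin in any of 33 ways, among them tubulins, respiratory chain subunits and TRIM proteins, were left out by the rule. The genes were thus chosen by their measured values on both arrays, so the levels and differences of these genes are a description of how they were chosen and carry no test.

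The cells were ANSO4E, a mouse neural stem cell line derived from a transgenic animal, with a background of C57BL/6JxSJL/JF1 oocytes and BDF1 sperm, grown with basic fibroblast growth factor and epidermal growth factor. Both cultures had been infected with the GeneNet mouse 40K lentiviral siRNA library. The reference control was not treated, and the other culture was exposed to 500 µM MNNG, an alkylating agent that methylates DNA, for 15 min, was grown out and was treated again. The survivors were therefore both selected and cultured for longer, and these cannot be told apart. The design has 1 array for the reference control and 1 for the survivors, both of 1 cell line, so no value below has a replicate, an error or a p-value, and having only 2 arrays limits how precise it is.

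In a pooled RNA interference screen, each infected cell carries a short sequence against a transcript, and the sequences recovered after a selection are those of the cells that lived. A transcript array can count them, because a labeled insert binds the probes that its sequence matches. The signal of a gene is then the abundance of inserts aimed at it and is not the expression of that gene. MNNG damage activates poly(ADP-ribose) polymerase, and cells in which that enzyme is overactivated die by a form of death called parthanatos. The paper gives cDNA from total RNA as the template of the amplified inserts, whereas the sample labels name genomic DNA. The sequences of the inserts and of the probes were not used here, and none is printed.

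Each deposited value is the log2 signal of a probe set, a group of short probes designed for 1 transcript. Most of each array lay low, with medians over 45037 probe sets of 0.69 for untreated cells and 0.74 for survivors. The bright ends of the arrays differed, with 99th percentiles of 4.11 and 2.68 and with 301 and 58 probe sets above 5, so the deposited arrays do not share 1 distribution. Of 18 hybridization controls, spiked into each sample at set concentrations, 18 were brighter for the survivors, with a median log2 difference of 2.77. With the arrays centred on these controls, 175 genes met the rule, and the median log2 difference of the genes described here was -8.21.

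Past both thresholds were 180 of 18193 genes, or 0.989%, and 13 of them were left out by their symbols. The 167 that remained make up 0.918% of all genes and 83.1% of the 201 genes above 5 in the reference control. Since the rule is this same contrast, nothing is read from these shares. After quantile normalization of the arrays, 69 of the 167 still met the rule, and when the median over the probe sets of a gene was used, 18 did. In the reference control the 167 genes ran from 5.01 to 9.32 with a median of 6.18, beside a median of 0.85 over all genes. In the survivors they ran from -0.34 to 2.999 with a median of 0.84, beside 0.90 over all genes.

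**Figure D1:**
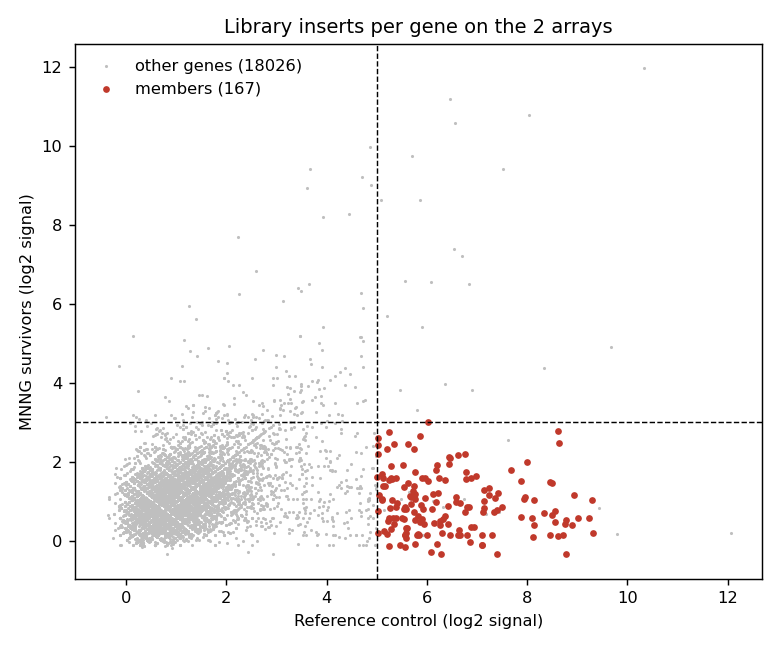
Log2 signal in the MNNG survivors (vertical axis) against log2 signal in the reference control (horizontal axis), 1 point per gene and 1 array per axis. Red points are the 167 genes described here, grey points all other genes, and dashed lines mark the thresholds of 5 and 3; the red points fill the lower right region by construction.

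The rule asked only for a survivor value below 3, and the genes spread over nearly the whole range below that value. At or below the median of all genes in the survivors were 90 of the 167 (53.9%), and at or below the 25th percentile were 66 (39.5%). At the upper side, 51 (30.5%) lay above the 75th percentile. Of the 167, 151 were below 2, 96 were below 1, and 12 were below 0. Between 2 and 3 lay 16, and these were not low on this array. The highest of them, Acot9, was at the 98.8th percentile of all genes in the survivors. The log2 difference, survivors minus reference control, ran from -9.12 to -2.42 with a median of -5.39, beside a median of 0.00 over all genes. All 167 were lower in the survivors, by the rule, beside 38.1% of all genes that were lower by any amount. The difference was below -2.5 for 165 members, beside 1.73% of all genes, and nothing is read from this. It was below -5 for 101 members and below -8 for 13.

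**Figure D2:**
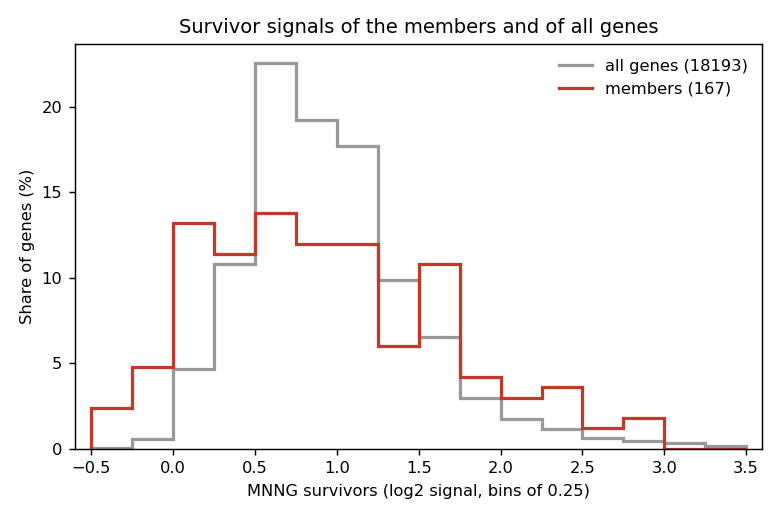
Share of genes (vertical axis, %) by log2 signal in the survivors (horizontal axis, bins of 0.25) for the 167 genes described here (red) and all 18193 genes (grey). Both lie mainly between 0 and 2, with medians of 0.84 and 0.90, and the red curve is the wider one at both ends.

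The rule keeps every survivor value below 3, so survivor medians by reference level are a description. The 76 genes between 5 and 6 in the reference control had a median of 0.91 in the survivors. The 45 genes between 6 and 7 had one of 0.86, and the 22 between 7 and 8 one of 0.92. The 24 above 8 had the lowest median, 0.57. Without the rule on the survivor value, 90.9% of the 88 genes between 5 and 6 in the reference control were below 3 in the survivors, and 87.1% of the 31 above 8 were.

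The threshold of 5 did not lie in a gap between values. Just above 5 in the reference control lay Iapp at 5.01, Tmprss2 at 5.02 and Vwa5a at 5.02. Just below 5, with survivor values below 3, lay Cmtr2 at 4.99, Kap at 4.98 and Gzmd at 4.98. Just below 3 in the survivors were Acot9 at 2.999, Magea6 at 2.78 and Slc2a1 at 2.76. On the other side, the genes above 5 in the reference control with the lowest survivor values were Klf6 at 3.31, Nipal4 at 3.80 and Rhobtb3 at 3.82. Slc2a1 and Tmprss2, with log2 differences of -2.48 and -2.42, were the only members with a difference smaller than 2.5.

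In what follows, each gene is given with its log2 signal before MNNG (the reference control) first and after it (the survivors) second. Probe sets differ in how well they bind, so values of different genes set side by side do not rank the abundance of their inserts. The 20 genes with the highest deposited reference values are of mixed function. Klk1, a kallikrein protease that releases kinins, had 9.32 and 0.20. Tmeff1, a transmembrane protein with follistatin and epidermal growth factor domains, had 9.29 and 1.04. Zdhhc14, a palmitoyltransferase, had 9.23 and 0.57. Smpd4, a neutral sphingomyelinase, had 9.02 and 0.57. Pigq, which acts in the first step of making glycosylphosphatidylinositol anchors, had 8.93 and 1.16. All 5 lay between 8.93 and 9.32 in the reference control and between 0.20 and 1.16 in the survivors. Hnrnpdl, an RNA-binding protein of the heterogeneous nuclear ribonucleoprotein family, had 8.90 and 0.40. Itgb1, the integrin beta subunit shared by most receptors for extracellular matrix, had 8.78 and -0.33. Fastkd2, which acts on mitochondrial RNA, had 8.77 and 0.52. Slc9a3r2, a scaffold protein that tethers membrane transporters, had 8.76 and 0.42. Pfpl had 8.71 and 0.15. Itgb1 and Klk1 had the largest log2 differences, -9.11 and -9.12.

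The remaining genes of the 20 included a pair whose survivor signal stayed between 2 and 3. Dnpep, an aspartyl aminopeptidase, had 8.63 and 2.47. Magea6, a member of the MAGE family of tumor antigens, had 8.61 and 2.78. The others were lower in the survivors. Serpinb9g, a serpin, had 8.62 and 0.12. Serpina1b, a secreted serpin of the alpha-1 antitrypsin group, had 8.45 and 0.14. Pofut2, which adds O-fucose to thrombospondin repeats, had 8.56 and 0.75. Ccnh, the cyclin of the CDK-activating kinase and of the transcription factor TFIIH, had 8.55 and 0.48. Zfand2a, an arsenite-inducible zinc finger protein, had 8.505 and 1.45, and Zfp110, a zinc finger protein, 8.46 and 1.49. Tcl1b3 had 8.49 and 0.64 and Nwd1 8.33 and 0.69. Outside these 20, Sesn1, a sestrin induced by p53, had 8.12 and 0.09, a log2 difference of -8.03. The 3 other probe sets of Sesn1 were at most 0.67 in the reference control and were equal or higher in the survivors.

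Several members act on DNA. In a list of 56 genes of DNA replication, 3 were members (5.36%), beside 0.918% of all genes, and the median difference of the list was 0.00. Rrm2, a subunit of ribonucleotide reductase, which makes deoxynucleotides, had 5.96 and 1.07. Mcm7, part of the replicative helicase, had 5.54 and 0.81, and the origin licensing factor Cdt1 had 5.39 and 0.57. Samhd1, which breaks down deoxynucleoside triphosphates, had 6.25 and 0.40. Top3b, a topoisomerase, had 5.63 and 1.46. At these probe sets all 5 differed by 4 log2 units or more. The other probe sets of Rrm2 and Top3b were higher in the survivors, so with the median over probe sets their log2 differences were 0.32 and 0.49, and without _x_at and _s_at sets 0.52 and 0.49. Of 140 genes of DNA repair and poly(ADP-ribose) metabolism, 1 was a member (0.714%). It was Parp3, a poly(ADP-ribose) polymerase that is activated by strand breaks, with 7.09 and -0.11. Paxip1, an adaptor that binds damaged chromatin, was not in that list and had 7.25 and 1.16.

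No gene of a list of 102 genes of the cell cycle and mitosis was a member, and its median difference was 0.00. Genes with related roles that the list did not hold were members. Cdca5, known as sororin, which holds sister chromatids together, had 7.09 and -0.11. Kif2a, a kinesin that shortens microtubules in the spindle, had 5.32 and 0.57. Cep128, a protein of the centriole, had 8.14 and 0.39. Mphosph9, also a centriole protein, had 5.26 and 0.81. Ccni, cyclin I, had 5.66 and 1.13. Cntd1, which acts in crossing over in meiosis, had 6.77 and 1.73.

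In a list of 107 genes of apoptosis and death receptors, 2 were members (1.87%), beside 0.918% of all genes. Cycs, cytochrome c, which triggers caspase activation when mitochondria release it, had 5.31 and 1.02. The other, Capn15, is an atypical calpain and had 5.03 and 2.18. Members with a known link to p53 or to cell death were also found outside the list. They were picked after their values were seen, so no share is given and no theme is read from them. Besides Sesn1, they were Shisa5, known as scotin and induced by p53, with 5.90 and 1.59. Pdrg1, a gene regulated by p53 and by DNA damage, had 5.90 and 0.55. Aim2, a sensor of DNA in the cytosol that starts inflammasome assembly, had 5.72 and 1.25. Pacs2, a sorting protein of contacts between endoplasmic reticulum and mitochondria, had 5.17 and 1.38. Sesn1 had the highest reference value of these, and the survivor value of Capn15 was the only one of these above 2. The study also lists 80 entries, selected for high signal intensities and for a log2 ratio of survivors over reference control above 2.5. Of these, 75 matched a measured gene, 72 genes in all, and 0 were members, beside 0.918% of all genes. That list was selected for higher survivor signals and the members for lower ones, so nothing is read from this. One of the 72 was past both thresholds and was left out by its symbol. It was Vamp3, a vesicle protein, with 5.92 and 0.14, matched through its symbol, while the accession beside it is annotated to a different gene. The study lists Vamp3 as higher in the survivors, which is the opposite direction. In the deposited values, at the probe set of highest mean, the 72 genes had a median survivor signal of 1.17. Above 5 in the survivors were 3 of the 72, a lower cut than the study's, which was set on linear intensities. By more than 2.5, 3 were higher and 1, Vamp3, was lower. The paper names software supplied with the library for its analysis, and that software was not used here. The study's values may also come from other probe sets, so they are not directly comparable with these.

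RNA-binding proteins contributed 3 of 211 genes of a list of splicing and RNA binding (1.42%), beside 0.918% of all genes. The 3 were Hnrnpdl, described above, and a helicase and a poly(C)-binding protein. The helicase Ddx47, which acts in ribosomal RNA processing, had 6.88 and 1.59. Pcbp3, the poly(C)-binding protein, had 5.39 and 1.59. Other RNA factors were members outside the list. Thoc1, of the complex that couples transcription to messenger RNA export, had 5.46 and -0.11. Rae1, which acts in messenger RNA export at the nuclear pore, had 5.38 and 0.84. Ythdf1, a reader of N6-methyladenosine, had 7.93 and 1.07. Tnrc6a, the GW182 protein that carries out silencing by microRNAs with Argonaute, had 6.79 and 0.85. Ilf2, an RNA-binding protein of the nucleus, had 6.21 and 1.20. Grsf1, an RNA-binding protein of mitochondrial RNA granules, had 5.88 and 0.89. Srpk3, a kinase of the family that phosphorylates SR splicing factors, had 7.39 and 0.78. Clns1a, a chaperone for the assembly of spliceosomal Sm proteins, had 6.36 and 1.54. Thoc1 lay below 0 in the survivors, and the others between 0.78 and 1.54.

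Of 50 ribosomal protein genes 0 were members, and none was above 5 in the reference control. Of 49 genes of elongation, termination and tRNA charging, 1 was a member (2.04%), beside 0.918% of all genes. This was Etf1, the factor that recognizes stop codons, with 6.19 and -0.09. Nmd3, which exports the large ribosomal subunit from the nucleus, had 6.44 and 1.95, and Grwd1, a ribosome biogenesis protein, had 6.93 and 0.34. Dtd1, which removes D-amino acids from tRNA, had 5.29 and 1.90.

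Of 117 genes of the transcription machinery 0 were members. Of 188 chromatin regulators and histones, 1 was a member, the acetyltransferase Crebbp, with 7.12 and 0.72. Gatad2a, a subunit of the NuRD chromatin remodeling complex, was not in the list and had 6.62 and 2.16. Of 314 developmental transcription factors, 1 was a member (0.318%), beside 0.918% of all genes. This was Sox4, which acts in neural and lymphoid progenitors, with 5.59 and 0.80, and a different probe set of it also had a high reference value, 4.82 and 0.05. Maf, a basic leucine zipper factor, was outside the list and had 7.39 and -0.34. Of 449 genes with zinc finger symbols, 6 were members (1.34%), beside 0.918% of all genes. The 6 were not all of a kind, as Zdhhc14 and Zdhhc17 are palmitoyltransferases. Zdhhc17, which is abundant in neurons, had 5.77 and 1.19. Zfp503 had 7.87 and 1.51, Zfp622 6.13 and 1.17 and Zfp825 5.74 and 0.73.

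Signaling genes were spread over many pathways. Of 268 protein kinase genes, 2 were members (0.746%), beside 0.918% of all genes. Prkd2, a kinase activated by diacylglycerol, had 8.09 and 0.57. Cdkl4, a kinase related to the cyclin-dependent kinases, had 5.24 and 1.52. The receptor tyrosine kinases Axl and Csf1r were outside that list. Axl, a receptor for Gas6, had 5.76 and 1.73. Csf1r, the receptor on which microglia depend, had 6.35 and 0.61. Of 180 phosphatase genes, 1 was a member, Ppp2r1a, the scaffold subunit of protein phosphatase 2A, with 5.83 and 0.14. Of 307 small GTPases and their regulators, 4 were members (1.30%), beside 0.918% of all genes. Ran, the GTPase of nuclear transport, had 5.41 and 0.94. Rhof, a small GTPase that promotes filopodia, had 5.76 and 1.07. Rab8a, a GTPase of transport to the plasma membrane and the cilium, had 5.25 and 0.57. Rasgrf1, an exchange factor for Ras that is abundant in neurons, had 5.62 and 2.46. Exchange factors outside the list were Vav2, of the Vav family, with 6.31 and 0.18, and Rapgef3, which is activated by cyclic AMP, with 5.55 and 1.37. Pde7a, which breaks down cyclic AMP, had 6.26 and 0.49.

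Members of developmental signaling included a receptor, a carrier of ligands and a cytoplasmic relay. The list of 245 cytokines, chemokines and growth factors also held their receptors and Notch. It had 3 members (1.22%), Notch3, Csf1r and Il17d, beside 0.918% of all genes. Notch3, a Notch receptor of vascular and progenitor cells, had 6.80 and 0.14. The cytokine Il17d had 6.08 and -0.30. Wls, which carries Wnt proteins to the cell surface, had 7.14 and 0.84. Dvl1, which relays the Wnt signal from its receptor, had 5.13 and 1.59. Dvl1 had the highest survivor value of these, and Csf1r, given above, was the other receptor of the list.

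The cytoskeleton held 9 members of 276 listed genes (3.26%), beside 0.918% of all genes, and the list's median difference was 0.00. Among the actin regulators, Tmsb10, a thymosin that sequesters actin monomers, had 6.87 and 0.35. Coro1c, a coronin, had 6.85 and -0.04. Pfn2, the profilin abundant in neurons, had 5.75 and 2.33, and the class I myosin Myo1f had 6.33 and 0.56. Among microtubule genes, Dynll1, a light chain of dynein, had 6.65 and 0.14. The kinesin Kif5a, a motor of axonal transport, had 5.14 and 0.25. Kif17, a kinesin of dendrites and cilia, had 5.82 and 0.18, and Mapre2, a protein of growing microtubule ends, had 7.14 and 1.29. Kif2a, given above, was the ninth. Marcksl1, an actin-binding substrate of protein kinase C, and Enc1, an actin-binding protein of the neural plate, were outside the list. Marcksl1 had 7.29 and 0.14 and Enc1 had 6.18 and 0.98. Of these 11 genes only Pfn2 was above 2 in the survivors.

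Members on the cell surface came from several lists and from outside them. Of 302 genes of matrix and adhesion, 2 were members (0.662%), Itgb1 and Cldn1, beside 0.918% of all genes. Cldn1, a claudin of tight junctions, had 7.89 and 0.59. Outside the list, the cell adhesion molecules Nectin3 and Mpzl2 had 5.29 and 0.28 and 5.94 and 0.41. Marveld1 had 5.23 and 0.497. Dpp4, a peptidase that inactivates incretin hormones, had 6.66 and 0.95. Tmprss2, a serine protease of epithelia, had 5.02 and 2.61. Enpp3, an ectonucleotidase, had 6.58 and 1.10. Vldlr, a receptor for reelin and lipoproteins, had 5.56 and 0.86. Of 245 ion channel genes, 1 was a member, the calcium-activated chloride channel Ano1, with 5.82 and 0.62. Clca3a1, a secreted regulator of chloride currents, had 5.25 and -0.13. Of 219 G protein-coupled receptors other than those for odorants and pheromones 0 were members, and of 77 olfactory and vomeronasal receptors 0 were.

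Of 463 solute carriers and transport ATPases, 9 were members (1.94%), beside 0.918% of all genes. Slc9a3r1 and Slc9a3r2 are not carriers but scaffolds for them, and Slc9a3r1 had 5.35 and 0.42. Slc25a5, which exchanges ADP and ATP across the inner mitochondrial membrane, had 6.42 and 0.43. Slc2a1, the glucose carrier GLUT1, had 5.24 and 2.76. Slc44a2, a choline transporter-like protein, had 7.36 and 1.08. Slc26a1, a sulfate carrier, had 5.59 and 0.07. Abcc5, an ATP-driven exporter of organic anions, had 6.42 and 0.87. Slc35a5 and Slc7a4 had 5.13 and 1.39 and 5.03 and 2.43. Slc2a1 and Slc7a4 stayed above 2 in the survivors, and 1.39, of Slc35a5, was the highest survivor value of the others. Of 216 genes of vesicle traffic, 2 were members (0.926%). Vps29, a subunit of the retromer, had 5.87 and 2.64. Lamp2, a lysosomal membrane protein, had 5.11 and 1.07.

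Genes of protein turnover and folding were members in small numbers. Of 49 proteasome genes, 1 was a member, the 20S subunit Psma5, with 5.54 and 0.54. Of 309 genes of the ubiquitin system, 3 were (0.971%), beside 0.918% of all genes. Usp14, a deubiquitinase bound to the proteasome, had 6.78 and 1.56. The cullins Cul3 and Cul5, scaffolds of ubiquitin ligases, had 6.20 and 1.91 and 5.10 and 1.68. Of 134 chaperones, 2 were members (1.49%), beside 0.918% of all genes. Calr, calreticulin, which folds glycoproteins and binds calcium in the endoplasmic reticulum, had 5.67 and 0.92. Fkbp9, a prolyl isomerase of the same compartment, had 5.57 and -0.16. Further genes of the secretory pathway were Stt3a, a catalytic subunit of oligosaccharyltransferase, with 5.58 and 0.31. St3gal6, a sialyltransferase, had 5.57 and 0.14. Rcn1, a calcium-binding protein of the endoplasmic reticulum, had 5.59 and 0.20, and Selenot, a selenoprotein of that compartment, had 5.59 and 0.31. Pih1d1, a subunit of a co-chaperone complex of HSP90, had 5.34 and 2.44. Those of the endoplasmic reticulum lay below 1 in the survivors.

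Metabolic genes came from several routes. Of 62 genes of glycolysis, gluconeogenesis and the citric acid cycle, 2 were members (3.23%), beside 0.918% of all genes. Pklr, the pyruvate kinase of liver and red cells, had 5.51 and 0.57. Pck1, which controls gluconeogenesis, had 5.74 and 1.37. In a list of 241 genes of lipid and sterol metabolism, Smpd4 and Acot9 were members (0.830%). Acot9, a mitochondrial acyl-CoA thioesterase, had 6.02 and 2.999. Acly, which makes cytosolic acetyl-CoA from citrate, was outside it and had 6.11 and 0.79. Abhd5, the activator of adipose triglyceride lipase, had 5.21 and 0.16. Of 235 genes of cytochromes P450, glutathione and redox, 1 was a member, the cytochrome P450 Cyp2b10, with 5.77 and 0.51. Paics, an enzyme of purine synthesis, had 6.18 and 1.78. D2hgdh, which oxidizes D-2-hydroxyglutarate, had 8.13 and 1.03. Ddah1, which breaks down the nitric oxide synthase inhibitor ADMA, had 5.29 and 1.59. Coq10a, a coenzyme Q-binding protein of mitochondria, had 6.63 and 0.27. Hscb, a co-chaperone of iron-sulfur cluster assembly, had 5.79 and 0.14.

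The list of immune molecules, one of the larger lists, had 12 members of 412 genes (2.91%), beside 0.918% of all genes. Its median difference was 0.00. The list was built on symbols, so it also took in Serpinb9g and Serpina1b, which are protease inhibitors, and Iglon5, a neural adhesion molecule, with 6.46 and 2.09. Of the lymphocyte genes, Ighm, the heavy chain of immunoglobulin M, had 7.11 and 0.14. Igll1, of the surrogate light chain of B cell precursors, had 7.997 and 1.99. H2-K1, a class I histocompatibility antigen, had 7.15 and 0.99. The natural killer cell receptors Klra7 and Klrb1b had 5.77 and -0.08 and 5.21 and 2.31. Cd24a, a surface glycoprotein of B cells and neural precursors, had 5.03 and 0.18. Of the myeloid genes, C1qb, a chain of complement C1q, had 6.98 and 1.63, and Fcgr2b, the inhibitory receptor for immunoglobulin G, had 5.11 and 1.04. Ifi44l, an interferon-induced gene, had 5.30 and 1.56. Mndal, a nuclear protein of the same family as Aim2, was outside the list and had 6.14 and 0.45. Many of these genes have near-identical relatives, as do the kallikreins, serpins and globins, and inserts or probes shared between relatives cannot be told apart. Klk1b5, a kallikrein closely related to Klk1, had 6.47 and 0.14, and Hbb-b2, a beta-globin, had 5.69 and 1.09.

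Cell type markers were read as insert targets and not as expression. Of 14 neural stem cell markers 0 were members, with reference values from 0.43 to 3.51 and survivor values from 0.03 to 2.59, 7 lower and 7 higher in the survivors. Of 8 neuron markers 0 were members, and 4 were lower and 4 higher. Of 5 oligodendrocyte markers, 1 was a member, Mbp, myelin basic protein, with 7.34 and 0.74. Of the 5, 2 were lower in the survivors and 3 higher. Of 6 microglia markers, 1 was a member, Csf1r, and 3 of the 6 were lower and 3 higher. Other members made by differentiated tissues were Afp, the alpha-fetoprotein of fetal liver, with 7.24 and 1.34, and Iapp, the islet hormone amylin, with 5.01 and 1.62. Cpe, which trims prohormones and neuropeptides, had 7.96 and 1.10. Mug1, a protease inhibitor of the alpha-2-macroglobulin family, had 6.84 and 0.86.

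In all, 77 of the 167 members belonged to 1 or more of 35 gene lists, and 27 of the lists held a member. The lists were written with earlier results of these arrays known, so their shares describe these arrays and support nothing further. Of 1876 genes known by clone names, 2 were members (0.107%), beside 0.918% of all genes. They were E130218I03Rik with 6.77 and 0.74 and Gm6958 with 5.85 and 0.47. Of 688 genes with TMEM, FAM and similar symbols 0 were members. Genes differ in their number of probe sets, and a gene with more of them has more chances to pass the rule. Nothing is read from these shares. The members not named in this text number 14, with reference values from 5.05 to 7.68 and survivor values from -0.34 to 2.19.

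**Figure D3:**
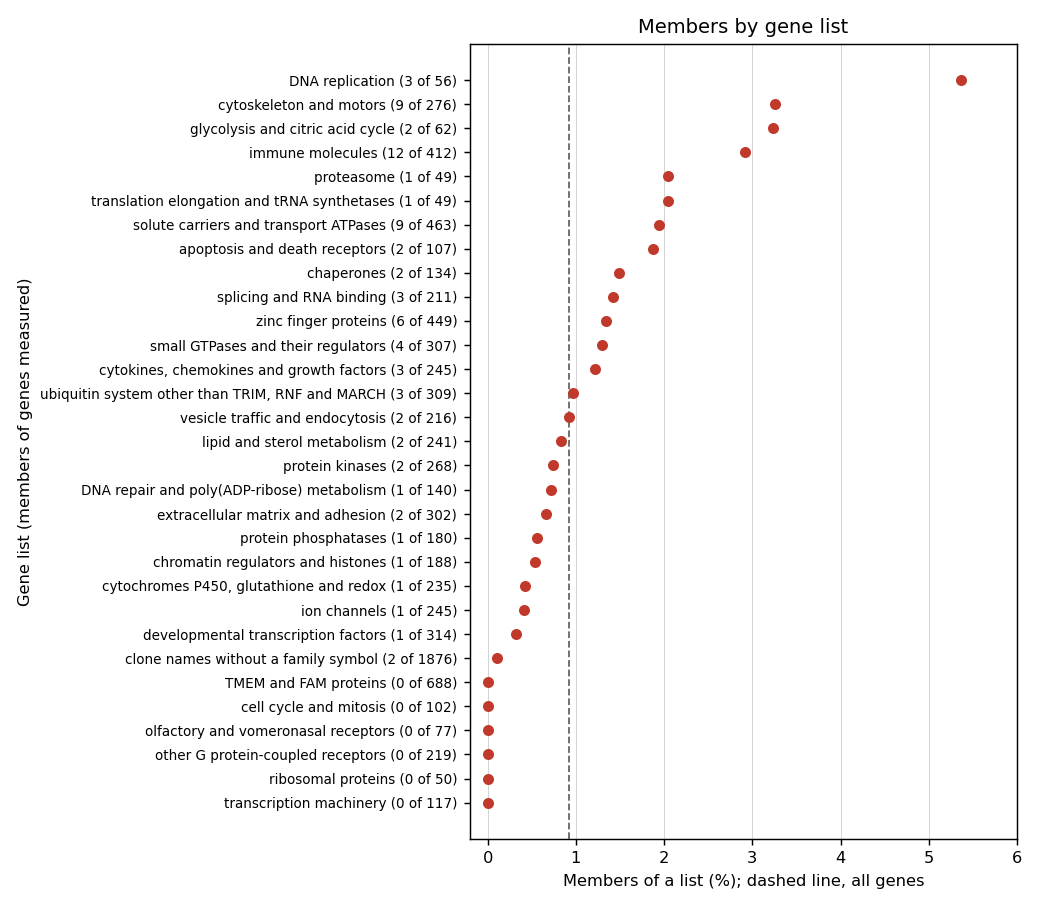
Share of the measured genes of each list that were members (horizontal axis, %), with the list and its counts on the vertical axis and marker lists not drawn. The dashed line is the share over all genes, 0.918%; DNA replication lies farthest to the right at 5.36%, from 3 genes.

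The kinds of probe set that read the members were in other proportions than over all genes. The rule named no kind, but it chose the probe set of highest mean, so the kinds are not independent of it. Affymetrix names a probe set with a plain ending (_at) when its probes are unique to a transcript. Endings mark probes shared by transcripts of a gene (_a_at), probes shared by several genes (_s_at) and sets in which some probes also match unrelated sequences (_x_at). Of the 167 members, 60 (35.9%) were read by _x_at probe sets, beside 701 of 18193 genes (3.85%). Plain _at sets read 56 members (33.5%) and 80.6% of all genes. The _a_at sets read 35 members (21%) and 11.4% of all genes, and the _s_at sets 16 (9.58%) and 4.08%. Genes that were above 5 in the reference control but at 3 or more in the survivors were alike in this, with 6 of 21 (28.6%) read by _x_at sets. Among members the levels hardly differed by ending, with median reference values of 6.01 for _at and 6.25 for _x_at and median survivor values of 0.79 and 0.92.

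**Figure D4:**
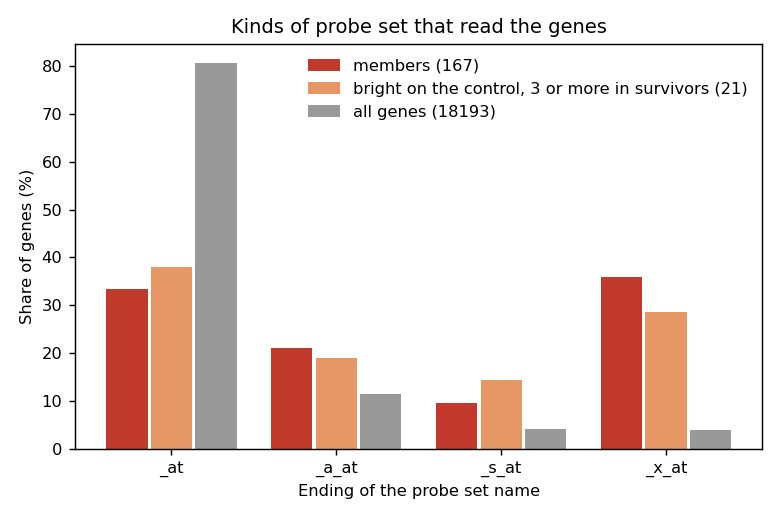
Share of genes (vertical axis, %) by the ending of the probe set that read them (horizontal axis), for the 167 members (red), the 21 genes bright in the reference control and at 3 or more in the survivors (orange) and all 18193 genes (grey). The _x_at ending holds 35.9%, 28.6% and 3.85% of them.

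The same held over single probe sets, where no choice among the probe sets of a gene is made. Of 26992 _at probe sets with 1 gene symbol, 0.274% were above 5 in the reference control, and of 2038 _x_at probe sets 4.22% were. In the survivors the shares above 5 were 0.0667% and 0.442%. Once above 5 in the reference control, probe sets of either kind were mostly below 3 in the survivors, 86.5% of 74 for _at and 91.9% of 86 for _x_at. The ending thus went with brightness in the reference control, and whether cross-matching probes account for it was not tested. The accession behind the probe set also differed. Members were read through sequences whose accessions begin with BB or AV, mouse expressed sequence tags, in 38.9% of cases, against 23.8% of all genes. Reference messenger RNA accessions (NM) stood behind 12% of members and 21.6% of all genes, and 22.2% and 7.2% had no accession in the annotation.

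Other probe sets of the same genes mostly did not show the bright signal. All 18193 genes together had 34945 probe sets with 1 symbol. Of the 167 members, 156 had 2 or more probe sets, with 443 further probe sets in all. The rule took the probe set of highest mean, so genes with more probe sets had more chances to become members. For the same reason the further probe sets had to be lower on average, and they come from the same 2 arrays. In the reference control they had a median of 0.86, and 408 of the 443 (92.1%) were at or below 3. Of the 443, 193 were lower in the survivors, 162 higher and 88 equal, with a median difference of 0.00. For 127 of the 156 genes, every other probe set was at or below 3 in the reference control. For 52, every other probe set was equal or higher in the survivors.

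A further 17 probe sets of 16 members were past both thresholds as well, or 3.84% of the 443, beside 0.587% of all 34945 probe sets with 1 symbol. All 17 of the 443 above 5 in the reference control were below 3 in the survivors. Among single probe sets with 1 symbol, 229 (0.655%) were above 5 in the reference control and 205 were past both thresholds. The rule took the probe set of highest mean, which limits how high the others could be, so nothing is read from this. Of the 443, 23 (5.19%) were lower by more than 2.5, beside 1.04% of single probe sets, and 0 were higher by that much. For Klk1 the second probe set had 9.61 and -0.17, a log2 difference of -9.78. For Zdhhc14 it had 9.06 and 0.38, and for Pigq 7.77 and 1.40. Dnpep had 8.25 and 1.15 at its second bright probe set, and Serpina1b had 7.70 and 0.81. These 5 genes therefore had a log2 difference below -6 at both. For Cldn1 the second set had 6.95 and 0.20, for Cyp2b10 6.19 and -0.35 and for Grsf1 6.25 and 0.34. Slc25a5 was the only member with 3 such probe sets, the further ones with 6.40 and 0.14 and with 5.41 and 1.10. Samhd1 had 6.04 and 0.45 at its second set, and Paics 6.13 and 1.67. For Pih1d1 it had 5.75 and 0.47, for Zfp825 5.49 and 0.80 and for Srpk3 5.36 and 0.04. Ppp2r1a had 5.13 and 0.41 at its second set. Acly had 5.11 and 1.504, the smallest difference of the 17, -3.61. The probe set of the member was an _x_at set for 12 of the 16 genes, and 9 of the 17 second probe sets were _x_at sets. How far probe sets of a gene share probes was not tested. Read without the _x_at and _s_at probe sets, 159 members could be measured, and 122 of them were lower, 26 higher and 11 equal in the survivors. Among those higher were Allc by 1.31, Clns1a by 1.18, Zdhhc14 by 1.18 and Grwd1 by 1.18.

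**Figure D5:**
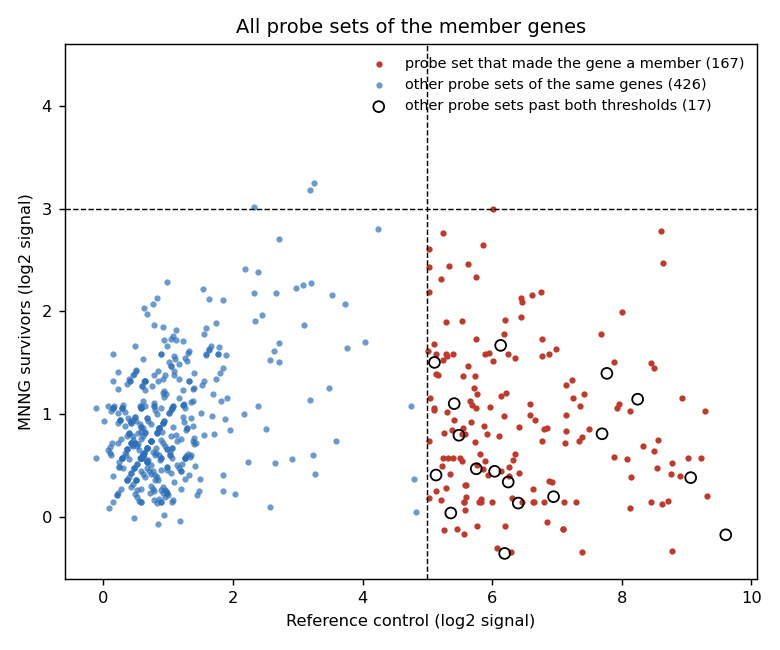
Log2 signal in the survivors (vertical axis) against the reference control (horizontal axis) for all probe sets of the 167 members. Red points are the probe sets that met the rule, open black circles the 17 other probe sets that also met it, and blue points the rest. Most blue points lie at or below 3 on both axes.

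Below the threshold, some further probe sets of members had smaller differences of the same sign. Others did not change, as a further set of Tnrc6a had 3.18 on both arrays and a further set of Cntd1 had 3.25 on both. Klk1b5 had 4.79 and 0.37 at its other probe set, and H2-K1 had 4.75 and 1.08. Iapp had 4.04 and 1.70. Ran had 3 further probe sets between 3 and 4 in the reference control, with 3.53 and 2.16, 3.27 and 0.42, and 3.19 and 1.14. Its remaining sets were higher in the survivors, with 1.74 and 1.89 and with 0.43 and 0.72. Mcm7 had 3.24 and 0.60. In contrast, Cycs had 3 other probe sets, of which the brightest had 1.33 and 1.33 and none was lower in the survivors. The 2 other probe sets of Parp3 were higher in the survivors, with 1.04 and 1.73 at the brighter of them. The other 7 probe sets of Mbp had reference values of at most 2.03.

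The deposited values were not all distinct, and this touches the low survivor signals. Of the 167 members, 12 had the same survivor value of 0.14, to 6 significant digits, a value that 179 genes of the array share. They include Dynll1, Ighm, Klk1b5, Marcksl1, Notch3, Ppp2r1a, Serpina1b, St3gal6 and Hscb. A value of 1.59 was shared by 6 members, Ddah1, Ddx47, Dvl1, Pcbp3, Sde2 and Shisa5, and one of 0.57 by 5, Cdt1, Kif2a, Pklr, Rab8a and Zdhhc14. In all, 31 members shared a survivor value with another member, and 32 (19.2%) with any other gene, against 87.0% of all genes. Among the reference values, 6 members shared theirs, as 3 pairs. Parp3 and Cdca5 had the same value on both arrays, and so did Allc and St3gal6, while Cdt1 and Pcbp3 shared only the reference value. Differences between members at these shared values have no meaning.

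Other bright genes behaved differently or were set aside by name. The 13 genes left out by symbol ran from 5.14 to 12.07 in the reference control and from 0.14 to 2.56 in the survivors, and 5 of the 13 were read by _x_at probe sets. The 21 genes above 5 in the reference control and at 3 or more in the survivors had medians of 6.45, close to the 6.18 of the members, and of 6.57 after selection. Their log2 differences ran from -4.76 to 4.73, with 8 of 21 lower. Of 18193 genes, 7 were above 5 in the survivors and below 3 in the reference control, against 180 (0.989%) the other way round. The survivor array had 58 probe sets above 5 and the reference control 301, so nothing is read from this contrast.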

How the data were processed

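Labeled inserts of the GeneNet lentiviral library from 2 cultures were read on Affymetrix mouse genome arrays, 1 per condition. The values deposited by the authors are log2 signals per probe set, and the submitters' processing notes name RMA, a method that corrects background and summarizes probes and usually normalizes between arrays. Its software version is not given in the sources used here. Besides this the paper names quantile normalization, but the deposited arrays do not share 1 distribution, with 99th percentiles of 4.11 and 2.68, so the values do not look quantile-normalized between the arrays. Quantile normalization was run as an alternative.

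From the deposited log2 values, 64 control probe sets were left out, and 45037 remained. One gene symbol was listed for 34945, several for 932 and none for 9160. Symbols were updated through gene identifiers for 34741 probe sets. For each of 18193 genes the probe set of highest mean was used. No column of values was left without a sample.

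With 1 array per condition no test, SD or analysis of variance was possible. The members and the 35 gene lists were chosen with earlier results of these data known. Named by rule were the 20 brightest members, the 10 with the largest difference, up to 4 per list, those with another probe set past both thresholds, the 3 genes nearest each threshold and side, and members in the study's list. In all 86 genes were named by the rule, and another 74 were named after their values were seen. The thresholds, normalization and probe set choice were varied in 14 alternatives. The background for calls is in percent of features past a threshold: 0.989% of genes were past both thresholds and 1.73% were lower by more than 2.5. Scripts used Python 3.11.15, numpy 2.4.6, pandas 2.3.3, statsmodels 0.14.6 and matplotlib 3.10.9 and were tested on simulated data.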

Additional observations from a re-analysis of the deposited data

How the results depend on the processing

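No paired analysis was possible because each condition has 1 array, so there is no replicate block and no replicate to leave out. In the main setting 167 genes were members, their median log2 difference was -5.39, and 201 genes were above 5 in the reference control. These stayed close when arrays were centred on their medians, low values were set to a floor, the survivor threshold was 2 or 4, or symbols were not updated. Quantile normalization gave 69 members, a median of -4.12 over the 167, and 91 genes above 5. With loess there were 121 members, a median of -4.22 over the 167 and 144 genes above 5. Centring on the hybridization controls moves the median of all genes by -2.82. It gave 175 members, a median of -8.21 over the 167 and 201 genes above 5. A reference threshold of 4 gave 254 members with a median of -4.62, and one of 6 gave 91 with -6.30. Without _x_at and _s_at probe sets there were 97 members, a median of -4.18 and 119 genes above 5. The median over the probe sets of a gene gave 19 members, -0.44 and 22. The probe set of highest survivor value gave 65 members and a median of -0.32, and that of lowest mean gave 12 and 0.00. These last settings read a gene through other probe sets by construction, and for the normalizations the cause was not tested.

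Some named genes changed sign. Under quantile normalization these were Cmtr2 0.79, Cntd1 1.66, Mpzl2 0.65, Nipal4 0.81 and Tnrc6a 1.54, in log2 difference, and under loess Nipal4 0.51. Without _x_at and _s_at probe sets they were Acly 0.18, Allc 1.31, Ano1 0.56, Axl 0.91, C1qb 0.29, Ccnh 0.23, Cd24a 0.52, Clns1a 1.18, Coq10a 0.33, Cpe 0.68, Fkbp9 0.60, Grwd1 1.18, Il17d 0.59, Klf6 0.23, Pde7a 0.29, Pfn2 0.29, Ran 0.29, Rhobtb3 0.43, Rrm2 0.52, Slc26a1 0.48, Stt3a 0.33, Tmeff1 0.70, Top3b 0.49, Vav2 0.70, Vldlr 0.29 and Zdhhc14 1.18. With the median over probe sets they were Abhd5 0.66, Afp 0.078, C1qb 0.076, Ccni 0.24, Clns1a 0.14, Crebbp 0.11, Ddah1 0.38, Enc1 0.28, Enpp3 0.061, Etf1 0.028, Gatad2a 0.59, Itgb1 0.034, Kif2a 0.23, Klf6 0.075, Mbp 0.23, Mphosph9 0.46, Nmd3 0.042, Parp3 0.34, Pck1 0.32, Pfn2 0.29, Rae1 0.25, Rhobtb3 0.43, Rrm2 0.32, Selenot 0.12, Sesn1 0.11, Slc35a5 0.29, Slc7a4 0.36, Tnrc6a 0.33, Top3b 0.49, Vldlr 0.12 and Zfp622 0.25. Of the genes that changed sign under quantile normalization, Cntd1, Tnrc6a and Mpzl2 had a further probe set with equal deposited values on both arrays. These values were 3.25, 3.18 and 2.38. Whether such sets were read in place of the member's own after normalization was not tested. Survivor values near the low end of the array may reflect background, and the arrays carry no replicate from which to set its size.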

Other observations

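Probe sets without exactly 1 gene symbol were not used for genes. Of 10092 such probe sets, 64 were above 5 in the reference control and below 3 in the survivors, 28 with several symbols and 36 with none. Before MNNG their median was 6.56 on the log2 scale and their highest value 10.52, and after it the median was 0.79. Of the 64, 19 were _x_at probe sets. No gene was assigned to them.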
